A study of Mus musculus with 2 samples.

Results

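The distal low-methylated CpG-poor bins are 500-bp stretches of the autosomes. They hold fewer well-covered CpG cytosines than CpG-dense unmethylated DNA, are lightly methylated and lie away from it. They were chosen by a rule on the deposited CpG tables. A bin was taken where it held 5 to 14 cytosines with at least 10 reads in both libraries, and where the mean of the levels of both libraries was at least 10% and under 35%. Its start also had to lie more than 2000 bp from the start of any bin with 15 or more such cytosines and a mean level under 10%, called a dense unmethylated bin here. The level of a bin is its methylated calls over all its calls, in percent. The rule took 11838 of the 152175 bins with 5 or more analysed cytosines (7.78%), and 14.2% of the 83649 autosomal bins that met its terms on cytosine number and distance. Since the levels of both libraries chose the bins, the levels are given as a description.

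The ATO library came from the hippocampus of C57BL/6 offspring whose dams drank water with 5000 ppb arsenic trioxide (ATO) from before mating through lactation, and who received it themselves after weaning. The control library came from the hippocampus of C57BL/6 mice with no treatment. The labels used here state neither age nor sex, nor whether a library holds 1 animal or a pool. DNA was enriched with SureSelect mouse Methyl-Seq baits and treated with bisulfite, and each group has 1 library. Every difference therefore compares 2 libraries, has no replicate check and is no test of the exposure.

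Most CpGs of mammalian DNA are highly methylated, and CpG islands are mostly unmethylated. A further class, known from mouse embryonic stem cells and neurons, consists of short CpG-poor dips of intermediate-low methylation away from promoters. Such dips are enriched for enhancers, where bound transcription factors and oxidation of methylcytosine by TET enzymes are known to keep methylation low. Bisulfite does not separate methylated from hydroxymethylated cytosine, which is plentiful in brain, so both count as methylated. An mm9 genome, gene annotation or enhancer map was not used here, so the bins are given by position alone, and whether any of them is an enhancer was not tested.

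On average the bins were dips set in more methylated DNA, which the choice of low bins favours. The median bin held 7 analysed cytosines. Median coverage per cytosine was 58.7 reads in the ATO library (quartiles 40.8 and 81.3) and 53.9 reads in the control library (quartiles 37.2 and 73.7). Levels averaged 21.6% ± 8.21 in the ATO library and 23.9% ± 9.05 in the control library (SD between bins, 11838 bins in 1 library each). Over summed calls, 21.61% were methylated in the ATO library (exact 95% interval 21.58 to 21.64) and 23.65% in the control library (23.61 to 23.69). These intervals treat all calls as independent. Calls on 1 fragment are not independent and reads at 1 cytosine may be copies of 1 molecule, so the intervals are too narrow even for counting error. All 19 autosomes held such bins, from 7.23% of the tested bins of chromosome 9 to 9.09% of those of chromosome 6.

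Against dense unmethylated bins, the name fits most bins in CpG number and in distance, with exceptions. The rule left out bins with fewer than 5 analysed cytosines, and 336195 bins held at least 1, against 152175 with 5 or more. The bins are thus not those with the fewest analysed cytosines, and their CpG number was not compared with that of the genome at large. Counting all reverse-strand cytosines listed in either library, at any depth, the median bin held 10 (quartiles 8 and 13), against a median of 34 in dense unmethylated bins. In 1740 bins (14.7%) there were 15 or more, so that these were CpG-poor only by the number of well-covered cytosines. Those bins averaged 20.2% in the ATO library and 22.7% in the control library, close to the other bins at 21.8% and 24.1%. The nearest dense unmethylated bin lay a median of 30500 bp away, and 9275 bins (78.3%) were more than 10000 bp from one. Even so, 1133 bins (9.57%) directly adjoined a bin under 10% that held at least 5 cytosines, and 1687 (14.3%) had one within 2000 bp. These low neighbours held fewer than 15 analysed cytosines, so the rule did not treat them as dense.

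Methylation was higher on both sides of the bins. The rule chose a low centre and cleared dense unmethylated bins from within 2000 bp, so a rise was largely set by the choice. Over all 11838 bins, cytosines with 10 or more reads averaged 22.4% in the ATO library and 24.6% in the control library within 200 bp of the bin centre. Between 300 and 500 bp from the centre, just outside the bin, they averaged 30.8% in the ATO library and 32.8% in the control library. Between 1000 and 2000 bp they averaged 48.5% and 49.8% in the ATO and control libraries. Beyond 2000 bp, where the rule allows dense unmethylated bins, levels went down again, to 33.0% in the ATO library and 34.2% in the control library at 3000 to 5000 bp. Around the 9275 bins more than 10000 bp from a dense unmethylated bin they did not, and averaged 58.4% in the ATO library and 60.9% in the control library at 3000 to 5000 bp. At these bins the midpoint between the level of the centre and that of the surroundings was reached 750 bp from the centre on either side, a width of 1500 bp in both libraries.

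**Figure D1:**
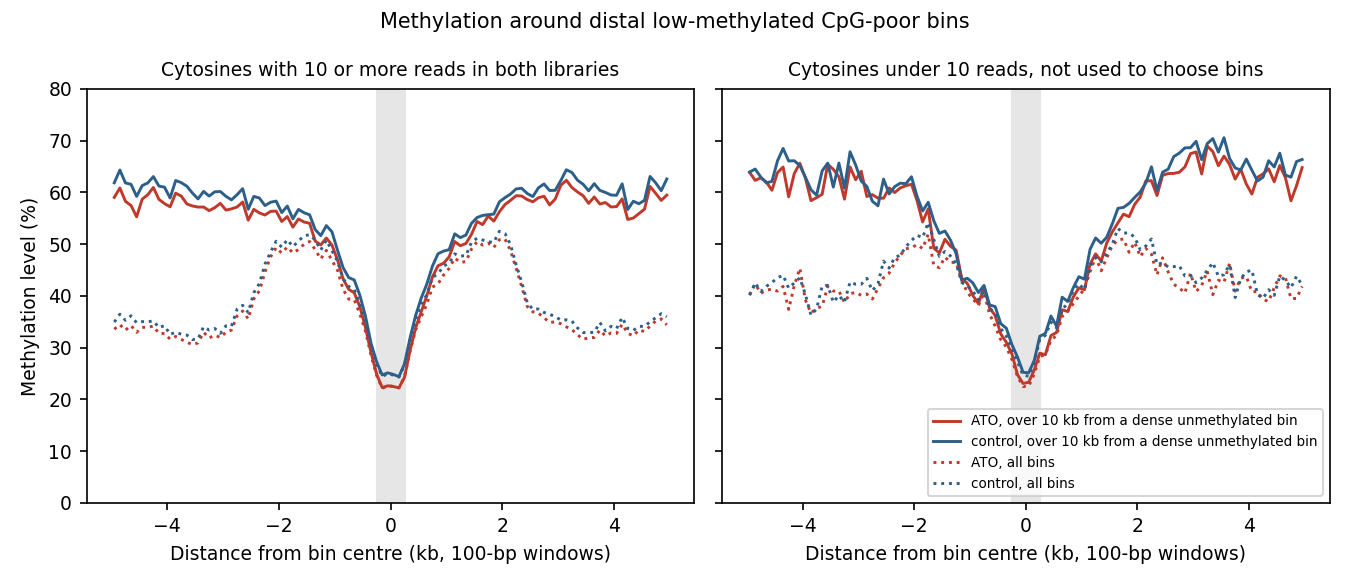
Mean methylation level (percent) by distance from the bin centre (kb, 100-bp windows), for cytosines with 10 or more reads in both libraries (left, each cytosine weighted alike) and for cytosines under 10 reads in at least 1 library (right, all calls summed). Red lines are the ATO library and blue lines the control library, solid for the 9275 bins more than 10 kb from a dense unmethylated bin and dotted for all 11838, and the grey band is the bin. The dip is centred on the bin in all 4 sets, and the dotted lines turn down again beyond 2 kb.

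Cytosines with fewer than 10 reads in at least 1 library took no part in choosing the bins, and they were lightly methylated too. There were 68420 of them inside the bins. Of their calls, 24.2% were methylated in the ATO library (exact 95% interval 24.0 to 24.4, 185058 calls) and 26.6% in the control library (26.4 to 26.8, 170458 calls). Over all autosomal cytosines of this kind the values were 51.8% in the ATO library and 53.2% in the control library. The forward strand, which supplied few of the cytosines that chose the bins, read low too. Of forward-strand calls 23.3% (23.0 to 23.7) were methylated in the ATO library and 25.3% (24.9 to 25.7) in the control library. Of the 68420 cytosines 34175 were on the forward strand, and many of these can be the opposite strand of CpGs that chose the bins. Reverse-strand calls, mostly at other CpGs, were methylated at 24.5% in the ATO library and 27.1% in the control library. Shallow cytosines can share fragments with those that chose the bin, so a low level in them was favoured by the choice. Other distal bins also read near their own class in such calls. In bins under 10%, 6.04% were methylated in the ATO library and 6.45% in the control library. In bins of 35 to 65% the values were 45.3% and 48.5%. The low levels of the shallow cytosines are thus a description and no separate evidence. All calls come from the same libraries, so they do not show that other animals share the levels. The intervals treat calls as independent and are too narrow where calls share a fragment.

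In these shallow cytosines the dip was wider. Around the bins more than 10000 bp from a dense unmethylated bin, 24.2% of calls within 200 bp of the centre were methylated in the ATO library (exact 95% interval 23.9 to 24.4) and 26.5% in the control library (26.2 to 26.8). The values at 1000 to 2000 bp were 49.8% and 51.7% in the ATO and control libraries, and at 3000 to 5000 bp 63.1% and 65.05%. The midpoint was reached 1150 bp from the centre on both sides in the ATO library, a width of 2300 bp. In the control library it was reached at 1250 and 1150 bp, a width of 2400 bp. Bins of fixed position are not centred on the lowest point of a dip, so a width is that of the average and not of a single dip.

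Single bins varied in their surroundings. A directly adjacent bin with at least 3 analysed cytosines was present below 4965 bins and above 5026. The adjacent bins averaged 34.96% in the ATO library and 36.9% in the control library on the lower side, and 34.7% and 37.0% on the upper side. A large share of them (39.98% below and 40.3% above) were themselves between 10 and 35%, and 14.2% and 14.5% were under 10%. Of the 1869 bins with both neighbours measured, 869 (46.5%) were lower than either neighbour, 896 (47.9%) lay on a slope with 1 neighbour higher and 1 lower, and 104 (5.56%) were higher than both. The low average thus joins local minima with the sides of wider dips.

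Flanks of 1000 to 2000 bp with at least 2 analysed cytosines on each side were present for 1197 bins (10.1%). Their flanks averaged 51.7% ± 21.4 in the ATO library and 53.2% ± 22.3 in the control library (SD between bins), and the bins themselves 22.3% in the ATO library and 23.5% in the control library. The dip, flank minus bin, was 29.5 points ± 22.8 in the ATO library and 29.7 points ± 23.0 in the control library. A positive dip was largely set by the rule, which holds the bin under 35% and keeps dense unmethylated bins out of the flanks. All distal CpG-poor bins of any level averaged 61.2% in the ATO library and 63.9% in the control library. The dip is thus given as a description. Both flanks were higher than the bin in 796 bins (66.5%), and both reached 60% or more in 274 (22.9%). A flank was under 35% in 602 bins (50.3%), and in 126 (10.5%) the flanks averaged less than the bin. The dip differed between the libraries by -0.17 points ± 11.2 (ATO minus control, SD between bins), and was deeper in the ATO library in 605 bins and shallower in 592. In these 1197 bins the ATO library was lower by 1.29 points inside the bin (difference -1.29) and by a similar amount in the flanks (difference -1.46).

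Within a bin the cytosines differed widely, and the same cytosines were high or low in both libraries. The lowest and highest cytosine of a bin lay a median of 42.5 points apart (quartiles 28.7 and 62.3, mean of both libraries). A cytosine under 10% was present in 8811 bins (74.4%) and one of 80% or more in 1527 (12.9%), while in 5921 (50.02%) every cytosine was under 50%. Of the 94834 cytosines in the bins, 49.3% lay between 10 and 35%, 28.3% under 10% and 22.4% at 35% or more. Of all analysed cytosines, 11.2% lay between 10 and 35%. The departures of cytosines from the level of their bin correlated between the libraries at a Pearson r of 0.82 across the 94834 cytosines. These points share bins and fragments, so the r is a description. Cytosines within 10 bp of each other differed in level by 8.44 points on average, those 51 to 100 bp apart by 15.1 points and those over 300 bp apart by 30.6 points. The level of a bin is therefore often an average over a slope and not a level shared by its cytosines.

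At 591 CpGs inside the bins both strands had 10 or more reads in both libraries, and the strands read nearly alike. The ATO library averaged 22.4% on either strand, and the control library 24.2% (forward) and 24.3% (reverse). Across these CpGs the strands correlated at a Pearson r of 0.81 in each library, as a description of sites that share a library.

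As chosen by the mean of both libraries, the bins were on average less methylated in the ATO library than in the control library. The difference averaged -2.31 points (ATO minus control, SD between bins 9.18, median -1.77, quartiles -7.39 and 3.10). The sign depended on how the bins were chosen, as the mean difference was 0.78 points in bins chosen by the control level alone. Of the 11838 bins, 7068 (59.7%) were lower in the ATO library, 4769 were higher and 1 was equal. All 83649 distal CpG-poor bins of any level, these included, differed by -2.67 points with 62.6% lower, and all 152175 tested bins by -1.64 points with 57.7% lower. In points, the difference is thus not particular to the bins of 10 to 35%. The spread between bins was far larger than the mean difference, and 75.4% of the bins differed by less than 10 points. The mean was lower in the ATO library on all 19 autosomes, with differences between -1.62 points on chromosome 6 and -3.16 points on chromosome 19. The autosomes share the same 2 libraries and are not replicates. In the cytosines under 10 reads the difference within the bins was -2.43 points.

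Relative to the level of the bins, the difference was of like size between 20 and 40%. Bins of 10 to 15% averaged 12.0% in the ATO library and 12.9% in the control library, a change of -6.94% of the control level. Bins of 20 to 25% averaged 21.2% and 23.8% in the ATO and control libraries, a change of -10.8%. Bins of 30 to 35% averaged 30.8% in the ATO library and 34.3% in the control library, a change of -10.2%. Just above the upper limit of the rule, 2724 distal bins of 35 to 40% averaged 35.5% and 39.6% in the ATO and control libraries, and just below the lower limit 2338 distal bins of 5 to 10% averaged 7.24% and 7.62%. The differences thus passed over the limits of the rule without a step. The change was -8.75% in distal bins of 35 to 65% and -3.55% in those of 65 to 90%. The number of cytosines made little difference, at -2.42 points with 5 or 6 cytosines and -2.21 points with 10 to 14.

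**Figure D2:**
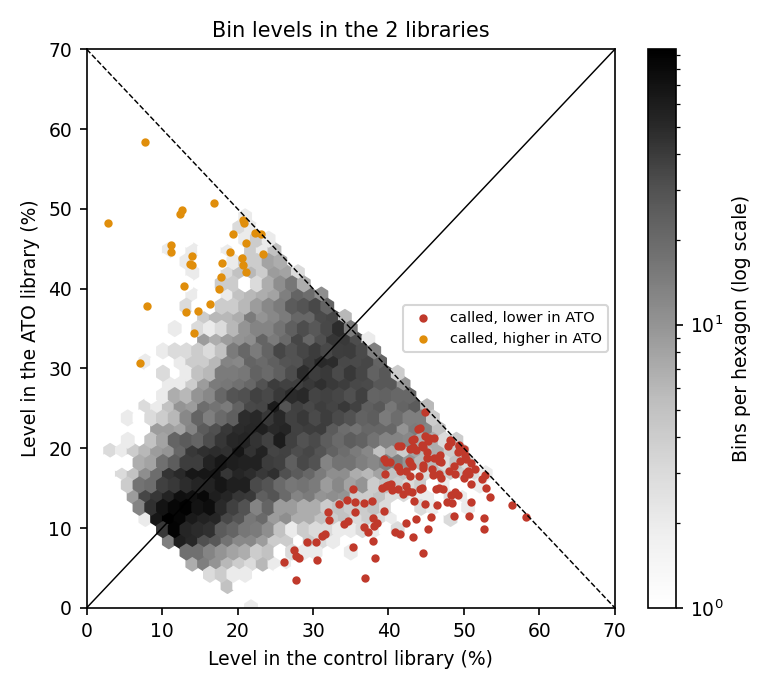
Level of each of the 11838 bins in the ATO library (vertical axis, percent) against the control library (horizontal axis, percent), as hexagons shaded by the number of bins on a log scale. Coloured points are bins called between the libraries, red for the 135 lower in the ATO library and orange for the 31 higher; the solid line marks equal levels and the dashed line the upper limit of the rule, a mean of 35%.

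CpG-poor bins of the same level near dense unmethylated DNA averaged nearly equal levels in both libraries. The 7416 autosomal bins with 5 to 14 cytosines and a mean of 10 to 35% that lay within 2000 bp of a dense unmethylated bin averaged 20.9% in the ATO library and 20.8% in the control library, a difference of 0.09 points (SD 7.34, 48.7% lower). The values on either side of the limit of 2000 bp did not change abruptly at it. At exactly 2000 bp the difference was 0.28 points (395 bins) and at 2500 bp, the first distance inside the rule, 0.07 points (303 bins). At 3000 bp it was -2.04 points (250 bins), at 5500 to 10000 bp -1.93 points (1309 bins) and beyond 100000 bp -2.39 points (2311 bins). Bins that adjoined any bin under 10% with 5 or more cytosines also differed less, at -1.06 points (1133 bins), against -2.81 points for the 5542 bins more than 20000 bp from one. In cytosines under 10 reads, which the rule did not use, the bins near dense unmethylated DNA differed by -0.76 points and the distal bins by -2.43 points. More methylated distal bins, of 35 to 65%, averaged 48.8% in the ATO library and 53.5% in the control library, a difference of -4.68 points (SD 14.7, 19837 bins). As each class has 1 library per group and its bins are not replicates, no test of these differences between classes was made.

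**Figure D3:**
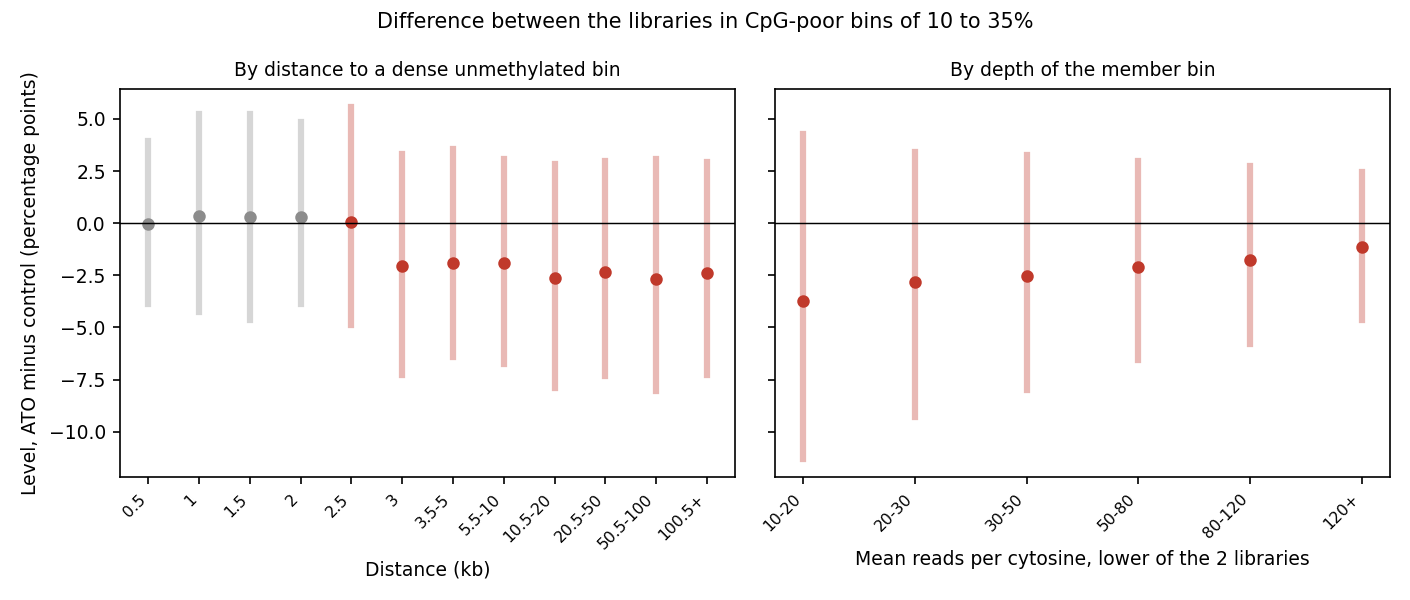
Difference in level between the libraries (ATO minus control, percentage points) in CpG-poor bins of 10 to 35%, by distance to the nearest dense unmethylated bin (left) and by mean reads per cytosine in the shallower of the libraries (right). Points are means over bins and bars run between the quartiles; grey marks bins within 2 kb, which the rule leaves out. Means sit near 0 up to 2.5 kb and between -1.89 and -2.67 points from 3 kb, and come closer to 0 with depth.

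The size of the difference moved with depth and with the library used to choose bins. In the 554 bins with 10 to 20 reads per cytosine in the shallower library it was -3.72 points, in the 4192 bins with 50 to 80 reads -2.11 points, and in the 359 bins with 120 or more reads -1.15 points. The part of depth in the difference was not tested. Bins chosen by the control level alone (10 to 35%) averaged 23.5% in the ATO library and 22.7% in the control library, a difference of 0.78 points over 11356 bins, so the sign of the mean turned. Bins chosen by the ATO level alone averaged 22.6% in the ATO library and 28.4% in the control library, a difference of -5.77 points over 13024 bins. In cytosines under 10 reads, which did not enter either choice, the difference was -0.82 points in the bins chosen by the control level and -4.12 points in those chosen by the ATO level. The mean of both libraries gives them equal weight, but whether choosing by it leaves the difference unshifted was not tested.

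**Figure D4:**
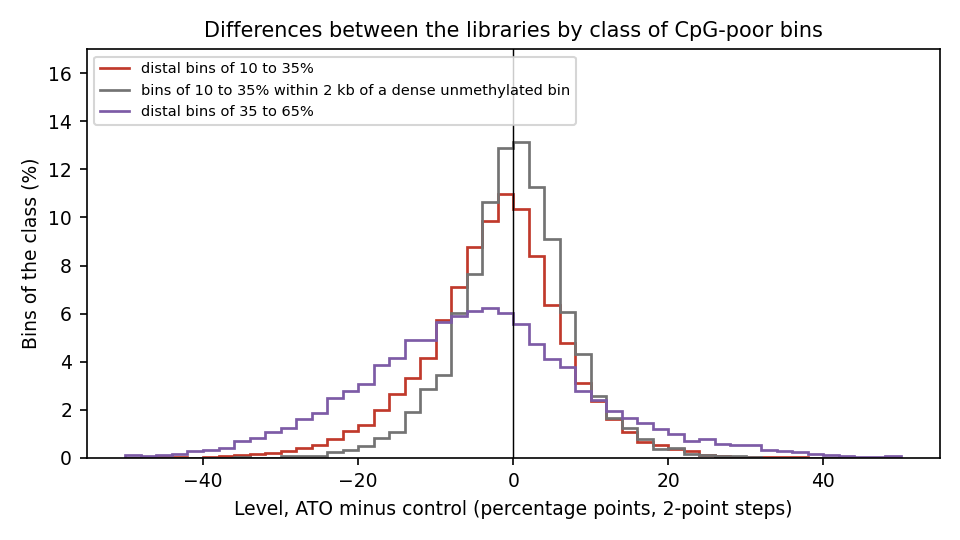
Distribution of the difference between the libraries (ATO minus control, percentage points, in steps of 2 points, with values beyond 50 points placed in the end steps) for the 11838 distal bins of 10 to 35% (red), the 7416 bins of that level within 2 kb of a dense unmethylated bin (grey) and the 19837 distal bins of 35 to 65% (purple). The vertical axis is the percent of bins of the class. The grey curve is centred near 0, and the red curve is shifted to the left with a median of -1.77 points.

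Few single bins were called different. Bins were tested by Fisher's exact test (two-sided) on the summed calls of each bin, scaled down by how many of its cytosines at most fell within 300 bp of sequence, because calls on 1 fragment are not independent. A bin was called at a Benjamini-Hochberg adjusted p under 0.05 over all 152175 bins and a difference of at least 20 points. By this rule 166 of the 11838 bins were called (1.402%), against 1.80% of all tested bins. Of these 135 were lower in the ATO library (1.14% of the bins, against 1.17% of all tested bins) and 31 higher (0.262%, against 0.630%). The share called lower was thus near the background and is no result about these bins. All tested bins include 27895 dense unmethylated bins, of which 0 were called, so the shares are not like for like. Of all distal CpG-poor bins of any level, 1.87% were called lower and 0.879% higher. Of the bins of 10 to 35% within 2000 bp of a dense unmethylated bin, 0.243% were called lower and 0.162% higher. The upper limit on the mean level also holds back large differences. At 10 to 15% 0 of 2345 bins were called, and at 30 to 35% 88 of 2580. Few calls came from shallow bins, with 1 of 554 at 10 to 20 reads in the shallower library and 0 of 1396 at 20 to 30 reads. Strands of 1 CpG scattered more than counting error, by a variance ratio of 2.50 inside the bins. With the sums divided by this ratio as well, 2 bins were called, 1 lower and 1 higher. That divisor came from 234 CpGs of intermediate level in the ATO library and 255 in the control library.

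Of single cytosines in the bins, 3715 of 94834 (3.92%) passed an adjusted p under 0.05 in Fisher's exact test with a difference of at least 25 points, against 2.65% of all analysed cytosines. Of these 2600 were lower in the ATO library (2.74%, against 1.73% of all) and 1115 higher (1.18%, against 0.916% of all). All analysed cytosines include the many near 0 or 100%, where a difference of 25 points can hardly occur, so the shares are not like for like. Scatter between the libraries was larger than counting error. The mean squared standardised difference at cytosines of 20 to 80% was 3.83, where counting error alone gives about 1. At the CpGs read on both strands, the libraries differed with a ratio of 2.75 in forward reads and 2.74 in reverse reads. The strands within 1 library differed with a ratio of 2.47 in the ATO library and 2.53 in the control library.

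Bins within 1000 bp of called bins mostly differed in the same direction. The 135 bins called lower had median levels of 15.2% in the ATO library and 44.0% in the control library. Most of them were thus above 35%, the upper limit of the rule, in the control library. They met the rule by the mean of both libraries and were not low-methylated in each. In the ATO library 21 of them were under 10%. Of 116 adjacent bins with at least 3 cytosines, 110 were also lower in the ATO library, with a mean difference of -18.9 points (SD 12.0). At 1000 bp 42 of 48 were lower, with a mean of -14.3 points, and at 1500 bp 20 of 30, with a mean of -4.67 points. Farther out the mean did not approach 0 steadily, at -5.96 points at 2500 bp (25 of 31 lower) and -7.45 points at 3000 bp (24 of 34 lower). Around bins called higher the means at these 2 distances were negative too, at -3.23 points (5 of 12 lower) and -4.24 points (9 of 13 lower). Bins adjacent to bins that were not called differed by -1.99 points, with 58.6% lower. The 31 bins called higher had medians of 44.1% in the ATO library and 16.4% in the control library. Most of these were thus above 35% in the ATO library. Of 31 bins adjacent to them 28 were higher, with a mean difference of 15.9 points (SD 14.7). Adjacent bins can share fragments with the called bin, so they are not separate evidence. Over all bins, the differences of neighbouring cytosines were alike at short range. Their Pearson r was 0.58 over pairs up to 10 bp apart and 0.15 over pairs more than 300 bp apart, as a description of pairs within a bin. Close pairs share reads and thus counting error, and the part of this in the r was not tested.

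The 5 called bins with the largest losses were taken among those with at least 20 reads per cytosine in both libraries. They had 9.90 to 13.9% in the ATO library and 52.6 to 58.3% in the control library. All 5 were thus above 35% in the control library and met the rule by the mean of both libraries. Coordinates are mm9. With the sums also divided by the strand dispersion, none of these 5 kept its call (adjusted p of 0.205 to 1 in Fisher's exact test). The bin at chr5:147214001-147214500 had 11.3% (exact 95% interval on the divided sums 5.86 to 20.8) in the ATO library and 58.3% (46.6 to 69.2) in the control library over 10 cytosines (Fisher's exact test, adjusted p = 5.2e-07). Its depth was 83.9 reads per cytosine in the ATO library and 79.1 in the control library. All 10 cytosines were lower in the ATO library, at 7.92 to 29.4% against 52.5 to 78.9% in the control library. The bin was picked for its large loss and its cytosines can share fragments, so these ranges are a description. Of its 9 gaps between cytosines 7 were 4 or 5 bp, a regular spacing that no other of these 10 called bins shared. The bin at chr3:102934001-102934500 had 12.9% (5.47 to 22.8) in the ATO library and 56.3% (44.0 to 69.2) in the control library over 5 cytosines (adjusted p = 5.3e-05 in Fisher's exact test). Its flanks at 1000 to 2000 bp read 90.3% in the ATO library and 90.05% in the control library. The flanks were thus nearly equal, and the dip was 77.4 points deep in the ATO library against 33.7 points in the control library.

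The other losses showed the same pattern of cytosines shifting as a group. At chr12:100757001-100757500 the level was 9.90% in the ATO library and 52.6% in the control library, with all 11 cytosines lower. At chr1:108051501-108052000 it was 11.3% and 52.6% in the ATO and control libraries, with 6 of 6 cytosines lower. At chr12:73375001-73375500 it was 13.9% in the ATO library and 53.4% in the control library, with 7 of 7 lower. For these 3 bins the adjusted p ranged from 0.00021 to 0.0185 (Fisher's exact test). The nearest dense unmethylated bin was 16500 bp or more away in each.

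The 5 largest gains, by the same rule on depth, had levels of 45.5 to 58.4% in the ATO library. In the control library their levels were 7.79 to 16.9%. All 5 were thus above 35% in the ATO library and were chosen by the mean of both libraries. With the strand dispersion in the divisor, 1 of the 5 kept its call, the bin on chromosome 13 (adjusted p = 0.0182, Fisher's exact test), and the other 4 had an adjusted p of 0.163 to 1. The largest, at chr2:163709001-163709500, had 58.4% (exact 95% interval on the divided sums 45.03 to 72.4) in the ATO library and 7.79% (2.51 to 16.8) in the control library over 6 cytosines (adjusted p = 8.6e-07, Fisher's exact test). It had 54.5 reads per cytosine in the ATO library and 66.3 in the control library. Its cytosines read 20 to 81.4% in the ATO library and 0 to 14.6% in the control library. At chr11:107171501-107172000 the level was 49.91% in the ATO library and 12.6% in the control library, and all 13 cytosines were higher. Its flanks read 94.4% in the ATO library and 90.4% in the control library, so the dip was 44.5 points deep in the ATO library against 77.8 points in the control library. The bin at chr13:5863501-5864000 had 49.4% and 12.4% in the ATO and control libraries, and its flanks were unequal. The lower flank read 2.53% in the ATO library and 1.99% in the control library, and the upper flank 49.8% and 19.8%, so this bin lay on a slope that differed between the libraries. It lies 3000 bp from a dense unmethylated bin and 1000 bp from a bin under 10%, closer than the other 9 called bins named here. The gains at chr16:57755501-57756000 (45.5% in the ATO library, 11.2% in the control library) and chr15:58175501-58176000 (50.7% and 16.9%) had 5 of 7 and 5 of 5 cytosines higher. As with the losses, the choice of the largest gains favours such counts. The adjusted p of these last 4 gains ranged from 6.0e-10 to 0.0417 in Fisher's exact test. A gain of 45.4 points at chr7:56505501-56506000, with 48.2% in the ATO library and 2.82% in the control library, was also called, but at 17 and 14.2 reads per cytosine fell under the depth limit.

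**Figure D5:**
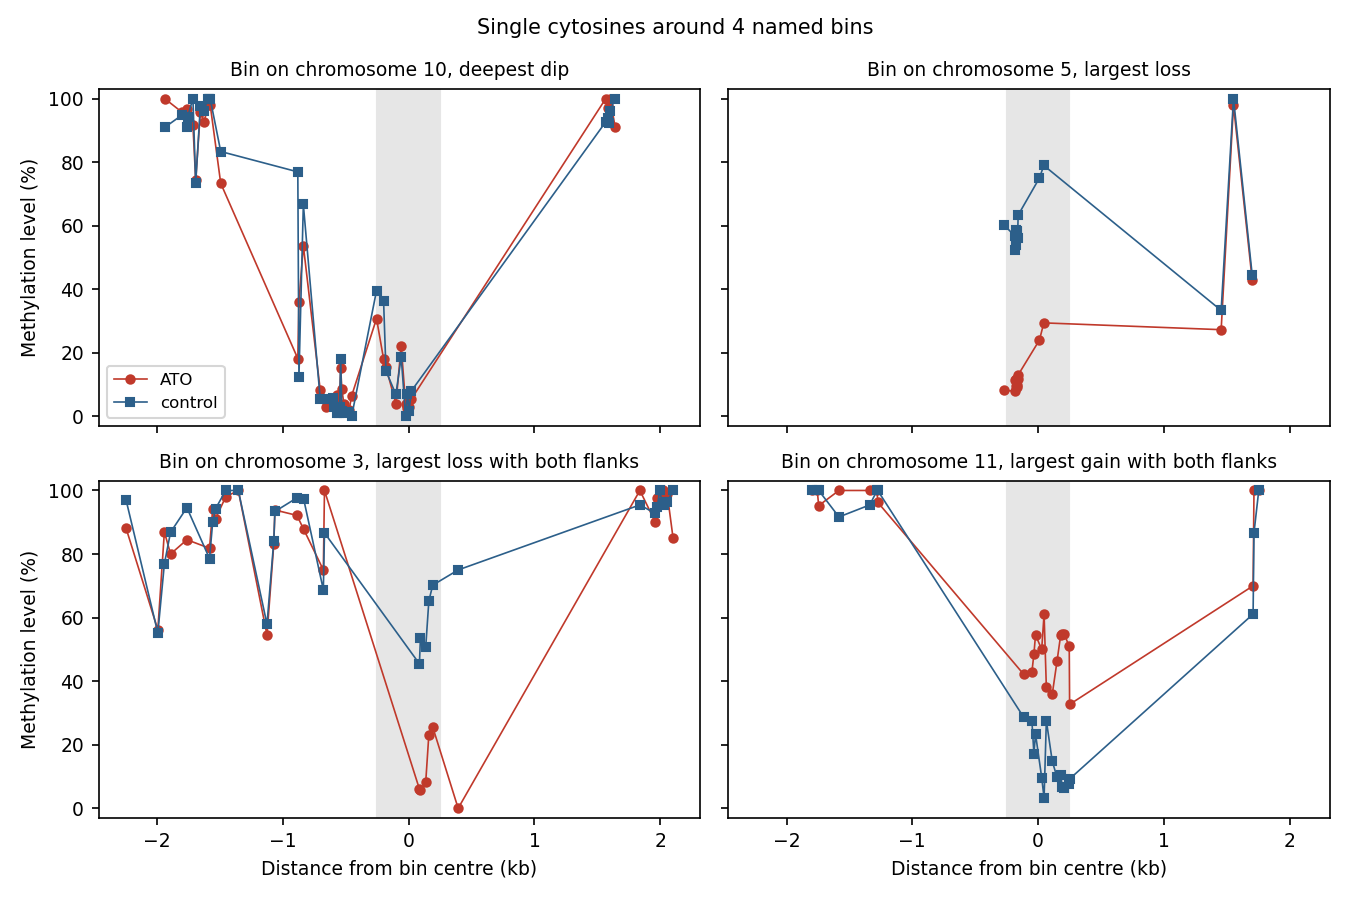
Methylation level (percent) of each analysed cytosine by distance from the bin centre (kb) around 4 bins, for the ATO library (red circles) and the control library (blue squares); the grey band is the bin and lines join neighbouring cytosines. On chromosome 10 both libraries are low across the bin and a neighbouring stretch, on chromosomes 5 and 3 the ATO library is lower inside the bin, and on chromosome 11 it is higher inside the bin with high flanks in both.

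The 5 deepest dips were picked by the mean of both libraries, which requires a deep dip in each and a low mean level, where few calls are possible, so they are given as a description. The bin at chr10:118503001-118503500 had 9.93% in the ATO library and 11.8% in the control library between flanks of 94.9% and 94.5%, a dip of 85.0 points in the ATO library and 82.7 points in the control library. It adjoins a bin under 10%, and its own 8 cytosines read 2.78 to 22.2% in the ATO library and 0 to 36.4% in the control library. At chr13:53205001-53205500 the dip was 80.2 points in the ATO library and 84.2 points in the control library, over 14 cytosines. At chr17:29640001-29640500 it was 78.4 points in the ATO library and 84.4 points in the control library. The other 2 bins held 5 cytosines each. These bins, at chr10:84366501-84367000 and chr4:63078501-63079000, had 3.94% and 8.29% in the ATO library and 18.7% and 16.4% in the control library. Their differences were -14.7 and -8.06 points, and with 25.4 to 43.4 reads per cytosine the exact intervals of the libraries overlapped.

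Some bins formed wider low stretches. Allowing 1 bin between neighbours, 9092 bins (76.8%) had no other such bin beside them and 2746 (23.2%) formed 1301 runs of 2 or more, of which 1181 were pairs. The first count includes bins whose neighbours were not measured, since 41.9% and 42.5% of the bins had an adjacent bin with 3 or more analysed cytosines on the lower and upper side, so it does not show that these dips end at the bin. The longest run held 6 bins at chr14:71023501-71026500, with mean levels of 28.6% ± 5.42 in the ATO library and 27.8% ± 5.29 in the control library (SD over its 6 bins). Of its 6 bins 2 were lower in the ATO library and none was called. A run of 5 at chr13:42196501-42199500 averaged 29.2% in the ATO library and 19.3% in the control library. All 5 of its bins were higher in the ATO library, by 0.40 to 24.8 points, but none was called. A run of 5 at chr8:111772001-111776000 averaged 27.5% in the ATO library and 21.7% in the control library. There 1 bin carried the difference, with 43.2% in the ATO library and 17.9% in the control library (Fisher's exact test, adjusted p = 0.036), and the other 4 differed by 0.39 to 1.32 points. Over the 1223 pairs of directly adjacent bins the differences correlated at r = 0.44, as a description of bins that share fragments.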

How the data were processed

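Per the labels' protocols, hippocampal DNA was sonicated, enriched with the SureSelectXT Mouse Methyl-Seq kit, bisulfite treated and sequenced on a NovaSeq 6000. Bismark 0.19.0, Bowtie2, bcl2fastq and build mm9 are named in the submitters' processing notes. Trimming, duplicate removal and filters were not stated there, and copies of a molecule may inflate depth. Per the file headers, the authors deposited for each CpG cytosine, by strand, the coverage as a raw count and the share of C and T as a percent. The ATO library held 147924810 calls and the control library 135987272.

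The product of coverage and percent C gave the methylated calls, a whole number in 100% of cytosines within the rounding of 0.005 percentage points. Tables were joined by position and strand, and bins of 500 bp were built as described in the report. Fisher's exact tests ran over all bins or all analysed cytosines with Benjamini-Hochberg adjustment (Python 3.11.15, scipy 1.17.1). The bin test was tried on simulated data. The simulated calls were drawn independently, without shared fragments or the extra scatter seen between strands, so they do not give the rate of false calls here. Intervals are Clopper-Pearson. Named bins are the 5 largest called losses and gains and the 5 deepest dips with at least 20 reads per cytosine, and 3 of the longest runs. There were 3 runs of 5 bins, and ties in length were settled by the lowest mean level. Regions and rules were chosen with earlier results of these data known. Alternatives to coverage, distance, level limits, bin position, weighting, strand and thresholds were tried.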

Additional observations from a re-analysis of the deposited data

How the results depend on the processing

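No paired analysis was possible because each group held 1 library. The mean difference of the bins, -2.31 points (ATO minus control), was 0.78 with bins chosen by the control level alone, a change of sign, and -5.77 with bins chosen by the ATO level alone. It was -2.45, -2.03 and -1.64 at coverage minimums of 5, 20 and 30, -1.95 in bins of 50 or more reads in both libraries, -2.08, -2.41 and -2.48 beyond 1000, 4000 and 10000 bp, -1.98 for 10 to 30%, -2.24 for 7 to 14 cytosines (7454 bins) and -2.25 as a mean of cytosine levels. The number of called bins, 166, was 78 for 10 to 30%, 315 for 5 to 40%, 105 for 7 to 14 cytosines, 567 with undivided sums, 72 at an adjusted p under 0.01, 55 at 30 points or more and 2 after division by the strand dispersion, all by Fisher's exact test. The dip of 29.6 points was 32.6, 25.5 and 22.3 at coverage minimums of 5, 20 and 30, 21.6, 32.4 and 34.2 beyond 1000, 4000 and 10000 bp, 31.9 and 29.2 for 10 to 30% and 5 to 40%, 30.4 for 7 to 14 cytosines, 29.4 with shifted bins, 29.9 as a mean of cytosine levels, 29.2 on the reverse strand and 30.1 with flanks of 2000 to 4000 bp. The dip changed between the libraries by -0.17 points, and by 0.0447 at a coverage minimum of 20 and 0.0433 with flanks of 2000 to 4000 bp, a change of sign. The causes were not tested. The limits of 10000 bp, 50 reads, listed cytosines and strand dispersion were chosen after seeing the data.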
